A study of Mus musculus with 22 samples.

Results

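The regions described here were those occupied by RNA polymerase II (PolII) in CTCF-depleted cells arrested in prometaphase or released for 1 h into early-G1. They were taken from the 2 prometaphase +auxin and the 2 early-G1 +auxin peak lists, without a further filter. Together these lists held 208179 of the 1309572 peaks in the 18 lists of the series. Peaks that overlapped by at least 1 bp were merged into 119529 regions covering 73.1 Mb, against 169903 regions when all 18 lists were merged. A region was called regained when both early-G1 libraries had a peak in it and neither prometaphase library had.

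The cells were G1E-ER4, a mouse erythroid precursor line derived from GATA1-null cells, in which both Ctcf alleles encode a fusion to an auxin-inducible degron and mCherry. The F-box protein OsTIR, which lets auxin direct the fusion to the proteasome, came from a retrovirus that also encodes GFP, and GFP-positive cells were sorted as a pool. Cells were arrested with nocodazole at 200 ng/ml. The +auxin cells received auxin before the end of the arrest and during release, and the control cells, which carry the same alleles and virus, received none. Fixed cells were sorted by mitotic phospho-epitope, DNA content and mCherry. Prometaphase cells had replicated genomes and G1 cells did not, and +auxin cells were taken from the mCherry-low gate and controls from the mCherry-high gate. Auxin itself and loss of CTCF can therefore not be told apart in these data. The methods call the 2 libraries of a group biological replicates, and the sources used here do not say in which steps they were handled apart.

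Transcription is largely shut off when chromosomes condense, and PolII leaves most promoters. As cells enter G1, initiation factors recruit PolII to promoters, where it can pause shortly after initiation before pause-release kinases let it elongate through the gene body and past the polyadenylation site. CTCF is a zinc finger protein that stops cohesin-driven loop extrusion at its binding sites and so shapes chromatin domains and loops.

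The promoters of 5 genes carry the contrasts that recur below and are printed here for that reason. Smc3 had no prometaphase peak and a strong early-G1 peak. Srsf7, Hist1h1c and Top2a had a peak at both stages, and their places among the shared regions moved up for Srsf7 and Hist1h1c and down for Top2a. Cenpf had a prometaphase peak and no early-G1 peak. Each run is the 250 bases before the RefSeq transcription start site (TSS) in GRCm38.p6, on the strand of the gene. The intervals are chr19:53600146-53600395 (plus strand) for Smc3, chr17:80207306-80207555 (minus) for Srsf7, chr13:23738557-23738806 (plus) for Hist1h1c, chr11:99024190-99024439 (minus) for Top2a and chr1:189688087-189688336 (minus) for Cenpf. Capitals mark matches on either strand to 3 motifs. The TATA box was searched as TATAAA and also as TATATA. The second was the CCAAT box, and the third was the CHR element of cell cycle genes, spelled TTTGAA. Matches of different motifs did not overlap in these windows.
Smc3: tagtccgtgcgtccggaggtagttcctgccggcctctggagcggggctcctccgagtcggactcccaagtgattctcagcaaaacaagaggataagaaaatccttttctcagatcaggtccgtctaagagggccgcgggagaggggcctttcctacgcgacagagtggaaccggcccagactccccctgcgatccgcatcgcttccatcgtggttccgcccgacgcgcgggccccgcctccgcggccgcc
Srsf7: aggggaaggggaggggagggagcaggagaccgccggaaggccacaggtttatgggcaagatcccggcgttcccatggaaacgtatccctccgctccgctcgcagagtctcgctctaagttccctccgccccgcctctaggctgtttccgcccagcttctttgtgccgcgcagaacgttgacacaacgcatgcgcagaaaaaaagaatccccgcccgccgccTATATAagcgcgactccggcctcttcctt
Hist1h1c: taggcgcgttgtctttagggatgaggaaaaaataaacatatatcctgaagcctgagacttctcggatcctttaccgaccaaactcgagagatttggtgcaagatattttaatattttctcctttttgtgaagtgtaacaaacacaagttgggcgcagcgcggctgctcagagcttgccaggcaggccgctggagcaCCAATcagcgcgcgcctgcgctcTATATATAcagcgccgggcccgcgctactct
Top2a: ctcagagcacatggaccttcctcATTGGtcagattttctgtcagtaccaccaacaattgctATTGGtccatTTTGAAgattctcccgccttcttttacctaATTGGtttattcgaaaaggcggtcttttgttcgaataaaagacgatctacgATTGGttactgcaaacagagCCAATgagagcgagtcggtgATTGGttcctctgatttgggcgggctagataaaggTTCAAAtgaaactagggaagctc
Cenpf: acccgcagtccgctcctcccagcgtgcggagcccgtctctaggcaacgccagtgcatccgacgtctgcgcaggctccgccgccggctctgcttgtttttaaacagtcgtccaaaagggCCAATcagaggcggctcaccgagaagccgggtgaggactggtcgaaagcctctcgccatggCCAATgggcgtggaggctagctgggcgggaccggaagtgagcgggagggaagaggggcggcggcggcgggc

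The Srsf7 window held a TATA box starting 29 bases before the TSS. The Hist1h1c window held overlapping TATA boxes starting 31 and 29 bases before the TSS and a CCAAT box at 54 bases. Top2a held 5 CCAAT boxes on the reverse strand and 1 on the forward strand, with CHR matches at 179 and 23 bases. Cenpf held CCAAT boxes at 132 and 71 bases, and Smc3 held none of these letters. A match describes the letters only and is not evidence of a bound site.

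Few PolII peaks were present in prometaphase, and many were present 1 h after release. The prometaphase lists held 3539 and 2414 peaks and the early-G1 lists 102195 and 100031. The covered length was 1.35 and 0.971 Mb in prometaphase and 57.1 and 56.8 Mb in early-G1. Early-G1 lists thus held 34.6 times as many peaks (log2 difference 5.11, SD between replicates 0.28) and covered 49.8 times as much sequence (log2 difference 5.64, SD 0.24). The median peak width was 240 and 257 bp in prometaphase and 313 and 320 bp in early-G1 (log2 difference 0.35, SD 0.052). In each measure the libraries of the stages did not overlap and the difference exceeded the SD, but the exact two-sided permutation p was 0.333, which is the smallest that 2 against 2 libraries allow. The depth recovered from the lists was 5.21 and 5.75 reads per kb of genome in prometaphase and 7.53 and 7.92 in early-G1. When early-G1 peaks were scaled to the prometaphase depth and kept only where they still passed the weakest prometaphase p-value, 81.9% and 72.0% of them remained and 41083 regions were regained. Prometaphase cells hold replicated DNA, and fewer PolII molecules per cell and less signal over the input of that stage cannot be told apart.

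**Figure D1:**
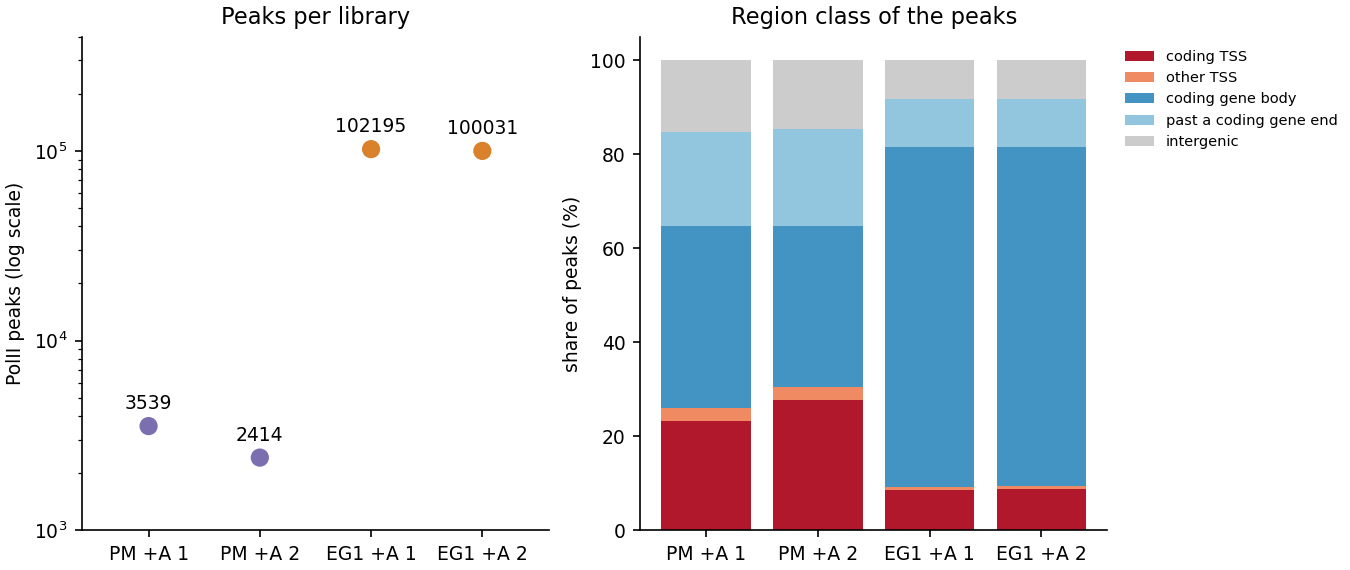
PolII peaks per library on a log axis (left) and the percentage of each library's peaks in each region class (right), for the prometaphase (PM) and early-G1 (EG1) libraries with auxin (+A), each point or bar 1 library. The 2 prometaphase lists held 3539 and 2414 peaks and the 2 early-G1 lists 102195 and 100031, and the share of peaks in coding gene bodies was higher in early-G1.

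Most reproducible early-G1 regions were new relative to prometaphase, and nearly all reproducible prometaphase regions persisted. Of the 119529 regions, 53918 were regained (45.1%), 1162 had a peak in all 4 libraries and 7 had a peak in both prometaphase and no early-G1 library. Another 1379 had a peak in both early-G1 libraries and 1 prometaphase library. A further 62923 (52.6%) had a peak in 1 early-G1 library only, with a median width of 218 bp against 605 bp for regained and 2786.5 bp for regions of all 4 libraries. Of the 1172 regions with a peak in both prometaphase libraries, 99.1% had a peak in both early-G1 libraries. Of the 56459 regions with a peak in both early-G1 libraries, 95.5% had none in prometaphase. Asking for a peak in a single early-G1 library would raise the regained count to 97342 (without replicate 1) or 99515 (without replicate 2).

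Gene bodies held most of the regained regions, but a smaller share of them than of all regions. Of all 119529 regions, 74.9% lay in coding gene bodies, 8.94% past a coding gene end, 8.02% in intergenic sequence and 7.55% over a coding TSS. Coding gene bodies, outside the TSS, accounted for 36403 regained regions (67.5%), coding TSS regions for 7009 (13.0%), stretches up to 5 kb past a coding gene end for 5530 (10.3%), intergenic sequence for 4526 (8.39%) and the TSS of other genes for 450. Among the 1162 regions of all 4 libraries the order was reversed, with 805 over a coding TSS (69.3%) and 208 in a coding gene body (17.9%). Regained coding TSS regions were the strongest class, with a median fold enrichment over the input in early-G1 replicate 1 of 20.8 against 6.20 in gene bodies, 6.64 past gene ends and 7.05 in intergenic sequence. Counted over peaks, the coding TSS share went from 25.4% ± 3.20 in prometaphase to 8.69% ± 0.167 in early-G1 (SD, n = 2 each). The gene body share went from 36.5% ± 3.06 to 72.3% ± 0.203, and the share past gene ends from 20.4% ± 0.371 to 10.3% ± 0.0183.

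The strongest early-G1 regions already had PolII in prometaphase. Of the 100 regions with the best mean early-G1 rank by fold enrichment, every region had a prometaphase peak and 99 had it in both libraries. Regained regions made up 27.1% of the next 900 regions, 73.2% of the 4000 after those, 95.8% of the following 15000 and 99.8% of the remaining 36459. A peak of given strength is easier to call where more signal is present, so these shares also follow the threshold of the caller.

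At genes, the TSS base of 20455 protein-coding genes longer than 1 kb was set against the lists. A peak lay over it for 817 and 672 genes in prometaphase and for 8687 and 8763 in early-G1. TSS peaks were regained at 7519 genes (36.8%), present in all 4 libraries at 471 (2.3%) and present in both early-G1 and 1 prometaphase library at 540. Of the 8530 genes with a TSS peak in both early-G1 libraries, 88.1% had no prometaphase TSS peak. Genes of all 4 libraries had a median fold enrichment at the TSS of 10.4 and 10.3 in prometaphase and 53.6 and 51.6 in early-G1. Regained genes had 23.9 and 23.1 in early-G1. Genes of all 4 libraries were shorter, with a median length of 11977 bp against 22721 bp for regained genes and 15200.5 bp for the 11532 genes with no TSS peak in the 4 lists. Of those 11532, 1446 had a peak elsewhere in the gene in both early-G1 libraries and 341 had one within 500 bp of the annotated TSS.

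The 10 regained coding TSS regions with the best early-G1 ranks had no peak in either +auxin prometaphase list and fold enrichments of 55.6 or more in both early-G1 libraries. Mapk14, the stress kinase p38 alpha, had fold enrichments of 73.5 and 69.6 in early-G1 (chr17:28827556-28829763, mm9). Mbnl1, a splicing factor, had 76.6 and 60.4 (chr3:60275969-60277344). Sesn2, a stress-induced sestrin, had 61.1 and 63.7. Tob2, an antiproliferative adaptor of deadenylation, had 60.2 and 61.6, and Ppp1r12a, a regulatory subunit of myosin phosphatase, had 61.1 and 59.9. The other regions of this group lay over the promoter shared by Tmem209 and 1700025E21Rik, over Gmeb2, Abhd5 and Rcl1, with values between 55.6 and 65.7, and over Cdc6 and Rara.

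The region over Cdc6, which loads the replicative helicase, and Rara, the retinoic acid receptor alpha, was also the widest regained region, with a run of 23750 bp (chr11:98765612-98789361) and fold enrichments of 70.9 and 63.7. The next widest lay over Zfp217 (22154 bp, 16.5 and 15.3) and Anp32b (21137 bp, 33.7 and 26.4). Of the 10 best regained regions, 7 had a peak in control prometaphase replicate 1, with fold enrichments between 5.47 (Ppp1r12a) and 12.6 (Tob2), and Abhd5 also had one in replicate 2. A difference in prometaphase signal between +auxin and control cells was not tested at these promoters.

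Outside coding promoters, the best regained gene body regions lay in an intron of Arid1b, a subunit of the BAF remodelling complex (50.5 and 50.7), in Nup160, a nuclear pore component (47.8 and 50.3), and in an intron of Tcfap2a (55.8 and 44.8). Past gene ends, strong regions lay past Srrm2 and Prss33 (40.30 and 36.05) and past Zfp59 (36.8 and 36.5). Intergenic regions were led by chr6:122759730-122762661, 7.27 kb from Foxj2 (59.8 and 47.8), chr12:73944620-73945787, 36.3 kb from 4930447C04Rik (50.9 and 53.7), and chrX:100642676-100644139, 22.8 kb from Tsx (52.3 and 46.1). The TSS of non-coding genes was led by AC123610.1 (46.1 and 50.3), C920006O11Rik (48.3 and 42.3) and 1500011K16Rik (44.2 and 43.3). Some of these lie close to annotated gene starts, and the class follows the annotation used.

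Gene lists showed which kinds of genes had been empty of TSS peaks in prometaphase and which had not. Each count below should be read against 36.8% regained and 2.3% in all 4 libraries over all coding genes, and no list was tested. That 36.8% is taken over all coding genes, also the 11532 with no TSS peak in the 4 lists. Of the 8530 genes with a TSS peak in both early-G1 libraries, 88.1% were regained. Histone and snoRNA host genes were counted at any length. The lists of erythroid markers, haem synthesis, proteasome, Mediator, OXPHOS, nuclear pore and G1 cyclins were mostly regained. Coding genes with a TSS peak in both early-G1 libraries were mostly regained too. Of list members with such peaks, 12 of 15 erythroid, 56 of 69 OXPHOS, 27 of 33 nuclear pore and 27 of 31 proteasome genes were regained. The counts were 20 of 23 for G1 cyclins, 10 of 11 for haem synthesis and 28 of 31 for Mediator. Peaks in all 4 libraries were present at between 48.5% (immediate early genes) and 77.3% (snoRNA hosts) of the members of the lists of ribosomal proteins, histones, snoRNA hosts, splicing regulators and immediate early genes.

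**Figure D2:**
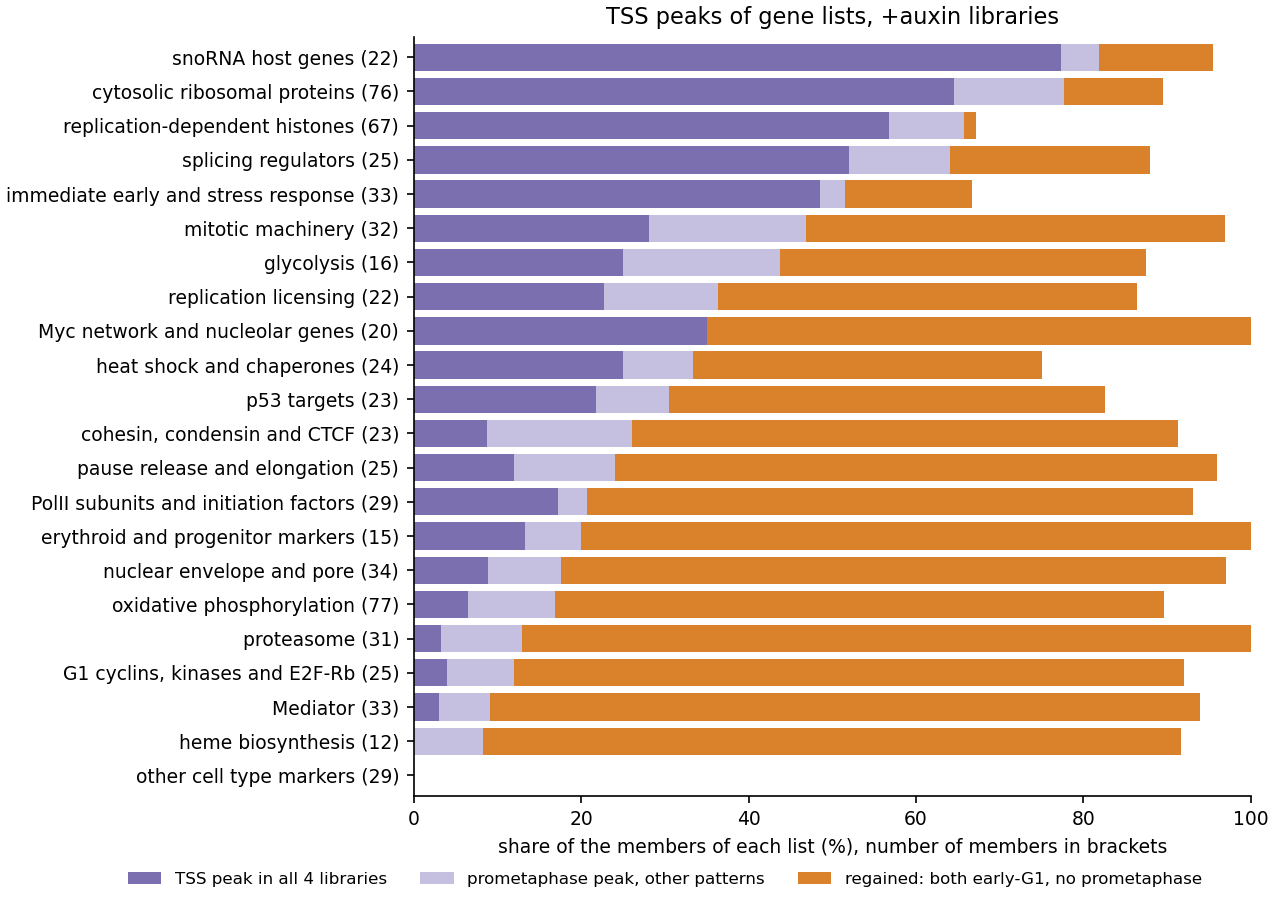
Share of each gene list, in percent of its coding members over 1 kb (histones and snoRNA hosts of any length), whose TSS peak was present in all 4 +auxin libraries, present in prometaphase in another pattern, or regained in early-G1, the blank remainder having no prometaphase peak and not a peak in both early-G1 libraries. Histones had 1 of 67 members regained and 38 in all 4 libraries, the proteasome had 27 of 31 regained and 1 in all 4, and none of the 29 markers of other cell types had a TSS peak.

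Markers of the cell type were compared first. All 15 erythroid and progenitor markers had a TSS peak in both early-G1 libraries, 12 of them regained, and none of 29 markers of lymphoid, myeloid, liver, neuronal, muscle and fibroblast cells had one in any of the 4 libraries. Kit, the stem cell factor receptor, had no prometaphase peak and 48.7 and 46.9 in early-G1. Gata2, a progenitor GATA factor, had none in prometaphase and 39.4 and 41.5. Tfrc, the transferrin receptor, had 18.7 and 18.0 in prometaphase and 78.4 and 76.7 in early-G1. Runx1, a haematopoietic transcription factor, had 12.6 and 10.3, then 70.0 and 75.4. Tal1, a partner of GATA factors, had 8.59 in prometaphase replicate 2 only, then 54.0 and 47.4. Of 12 haem synthesis genes, 10 were regained and none had a peak in all 4 libraries. Among them Cpox had 38.5 and 44.8 and Alad 33.5 and 37.0 in early-G1, whereas Alas2, the erythroid form of the first enzyme, had no TSS peak. Inside the Alas2 gene the early-G1 libraries had 4 and 5 peaks, with highest fold enrichments of 6.20 and 5.45.

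Genes for basal cell functions differed among themselves. The proteasome had 27 of 31 members regained, with Psma6 at 41.6 and 48.6 in early-G1 and Psmb4, its only member of all 4 libraries, at 18.1 and 17.8 and then 40.5 and 41.0. Oxidative phosphorylation had 56 of 77 regained and 5 in all 4, with the complex I subunit Ndufa7 at 25.8 and 29.8 and then 64.2 and 62.6. The ribosomal protein gene Rps28 had the same values. Its TSS and that of Kank3 lie in the same region, so these values cannot be credited to Ndufa7 alone. Mediator, the coactivator that links factors to PolII, had 28 of 33 regained, with Med4 at 46.9 and 37.7. Nuclear envelope and pore genes had 27 of 34 regained, among them the A-type lamin gene Lmna (54.5 and 53.2) and Tmpo (53.6 and 48.8). Glycolysis had 7 of 16 regained and 4 in all 4 libraries, with Gapdh at 24.2 and 28.3 in prometaphase and 93.9 and 103 in early-G1. At least 1 prometaphase peak was present at 43.8% of glycolysis members and at no more than 17.6% of the members of the other 4 lists. Over all 20455 coding genes, 817 and 672 had a TSS peak in the 2 prometaphase libraries. None of these lists was thus below the share of all coding genes.

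The transcription machinery was in part occupied in prometaphase. Of 29 genes for PolII subunits and initiation factors, 21 were regained and 5 had a peak in all 4 libraries. Polr2a, the largest subunit, had 48.5 and 31.5 and then 110 and 102, and Gtf2b had 20.3 and 16.0 and then 77.9 and 94.7. Of 25 genes for pause release and elongation, 18 were regained and 3 had a peak in all 4. Hexim1, the inhibitor of the pause-release kinase P-TEFb, had 24.2 and 25.2 and then 74.4 and 78.8, and the super elongation complex gene Aff1 had no prometaphase peak and 67.3 and 69.2 in early-G1. Of 25 splicing regulators, 13 had a peak in all 4 libraries and 6 were regained. Srsf7 went from 46.7 and 41.2 to 112 and 112, Srsf2 from 39.4 and 34.2 to 84.1 and 91.0, and Srsf3 from 55.5 and 53.5 to 78.4 and 79.2.

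Translation and growth genes were taken as 3 lists. Of 76 cytosolic ribosomal protein genes, 49 had a peak in all 4 libraries and 9 were regained. Rps12 had 28.0 and 23.2 and then 94.3 and 94.3, and Rps2 had 25.8 and 37.6 and then 83.9 and 83.4. Of 22 snoRNA host genes, 17 had a peak in all 4. Gas5, a snoRNA host that is itself non-coding, shared its region with the coding gene Zbtb37 and had 51.0 and 47.2 and then 99.1 and 98.5. In the Myc network and nucleolar list, 7 of 20 had a peak in all 4 and 13 were regained. Myc had 22.5 and 20.1 and then 89.9 and 83.4, Nop56, a box C/D snoRNP protein, had 23.1 and 9.78 and then 93.4 and 83.4, and Eif4a1, a translation helicase, had 19.8 and 12.9 and then 90.8 and 89.3. Each of these 6 genes had a higher fold enrichment in both early-G1 than in both prometaphase libraries. Fold enrichment is a ratio to the input of its own stage, so these levels were described and not tested.

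Immediate early and stress genes were also occupied at both stages in many cases, with 16 of 33 in all 4 libraries and 5 regained. Mcl1, an anti-apoptotic BCL2 relative, had 13.0 and 12.2 and then 93.0 and 93.4. Btg1, an antiproliferative gene, had 24.2 and 33.4 and then 87.2 and 94.7. Junb had 28.6 and 26.2 and then 83.5 and 90.8, Fos 6.05 and 8.75 and then 30.6 and 26.0, and Egr1 17.6 and 23.2 and then 32.8 and 38.1. These 5 genes span a wide range of early-G1 levels. Of 24 heat shock genes and chaperones, 10 were regained and 6 had a peak in all 4, with Hsp90aa1 at 31.4 and 26.8 and then 76.6 and 80.9. Of 23 p53 targets, 12 were regained and 5 had a peak in all 4, and Cdkn1a, the kinase inhibitor p21, had 17.0 and 17.0 and then 87.7 and 92.2.

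Cell cycle genes were taken as separate lists for G1, DNA replication and mitosis. G1 cyclins, kinases and E2F-Rb genes had 20 of 25 regained and 1 in all 4 libraries, with Ccnd2 at 61.1 and 57.4 in early-G1. The Ccnd2 call turned on the TSS base. The merged region over it (chr6:127099204-127103217) had a peak in both prometaphase +auxin libraries. In control prometaphase the Ccnd2 TSS had 10.4 and 13.3. Replication licensing had 11 of 22 regained and 5 in all 4, with Mcm7 at 9.13 and 11.3 and then 49.6 and 47.8. Mitotic machinery had 16 of 32 regained and 9 in all 4. At least 1 prometaphase peak was present at 46.9% of its members, beside 817 and 672 of 20455 coding genes in the 2 prometaphase libraries. Ccnb1 had no prometaphase peak and 43.8 and 40.2 in early-G1. Top2a, the topoisomerase of condensed chromosomes, had 20.3 and 23.2 and then 46.5 and 42.3, and the kinesin Kif20a had 16.5 and 15.4 and then 40.9 and 45.2. The list of cohesin, condensin and CTCF had 15 of 23 regained and 2 in all 4. Smc3, the cohesin subunit printed above, had 74.4 and 88.4 in early-G1 and no prometaphase peak, and Stag1 had 51.4 and 45.7. Ctcf itself (chr8:108160468-108206822) was regained with 21.7 and 20.8, beside early-G1 control values of 21.4 and 14.0. Degradation acts on the protein, so this peak does not check the labels.

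Few replication-dependent histone genes were regained. Of 67, 38 had a TSS peak in all 4 libraries and 1 was regained. Their median fold enrichment at the TSS in early-G1 was 87.1 and 78.8. Hist1h1d had 23.9 and 30.8 and then 114 and 117, Hist3h2a had 22.0 and 20.1 and then 111 and 108, and Hist1h1c had 18.1 and 14.4 and then 103 and 104. Many of these genes are similar copies in clusters. The authors removed alignments of low mapping quality, so reads that match several copies can be lost and single values are uncertain. In the 250-base windows, a TATA box was present in 77.8% and a CCAAT box in 91.7% of the 36 histone genes that could be matched of those with a peak in all 4. Over all 27025 genes of the promoter table these shares were 18.0% and 37.5%. For 385 matched genes of all 4 libraries they were 19.2% and 53.5%, and for 6067 matched regained genes 7.98% and 41.2%. Mitotic genes held a CCAAT box in 82.1% of 28 matched members. A CHR match was present in 55.6% of the histone and 35.7% of the mitotic genes, in 18.7% of the genes of all 4 libraries and 12.3% of the regained genes, and in 18.3% of all genes.

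**Figure D3:**
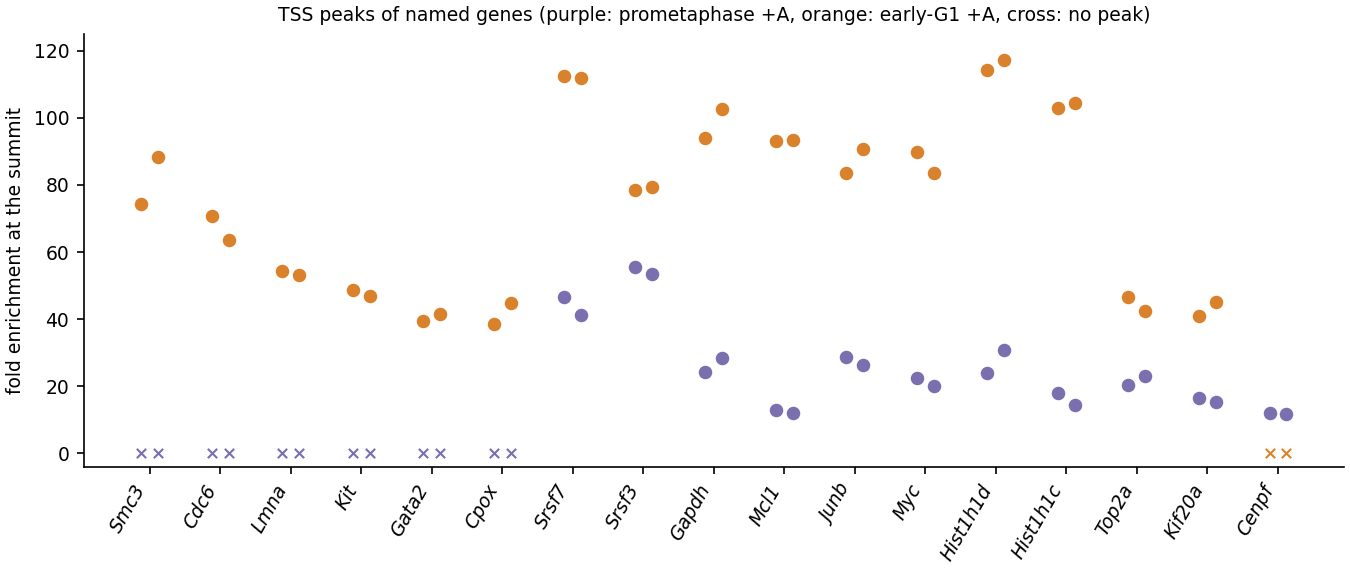
Fold enrichment over the input at the TSS of 17 named genes in the 2 prometaphase and the 2 early-G1 +auxin libraries, each point 1 library and a cross where the list had no TSS peak. Cenpf had a value in prometaphase alone, Smc3, Cdc6, Lmna, Kit, Gata2 and Cpox in early-G1 alone, and the other genes at both stages.

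Several list members without a TSS peak had one close by. Pcna, the sliding clamp, had a peak 352 and 385 bp from its annotated TSS, with fold enrichments of 64.7 and 57.8 in the gene. Rpl3 had a peak at 557 and 529 bp (76.1 and 78.5) and Hist1h2ak at 375 and 367 bp (89.5 and 75.4). Hnrnpa1 was 58 and 62 bp away and Hnrnpa2b1 25 and 31 bp. The annotated start therefore decided these cases, and they do not show genes without PolII.

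The reverse pattern, a prometaphase peak without an early-G1 one, was rare. Of the genes, Cenpf, a kinetochore protein of mitotic cells, 4930442H23Rik and Dapk3 showed it. Cenpf (chr1:191464478-191511965, minus strand) had a region of 752 bp over its TSS with 11.9 and 11.7 in the +auxin and 12.8 and 11.2 in the control prometaphase libraries. No early-G1 library had a peak in the gene or within 500 bp upstream, and the nearest +auxin early-G1 peaks were 640853 and 640737 bp away. Of the 14 lists outside prometaphase, 6 had a peak there. The fold enrichment was 3.90 in 1 of 3 mid-G1 +auxin and 5.24 in 1 of 3 mid-G1 control lists, and in late-G1 it was 6.23 and 7.27 with auxin and 8.18 and 12.4 without. The pattern at Cenpf was the same with and without auxin in every prometaphase and early-G1 list. 4930442H23Rik and Dapk3 shared a single peak of 7.69 in prometaphase replicate 1.

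The other 6 of the 7 regions with a peak in both prometaphase and no early-G1 library were an intron of Ano2 and 5 intergenic stretches of 168 to 276 bp. Their fold enrichments lay between 7.70 and 15.8. Control early-G1 replicate 2, the deeper library at 11.8 reads per kb, had a peak overlapping each of them. Control early-G1 replicate 1 had none at 5 of them and had a peak, with a fold enrichment of 6.98, at the stretch near D930015E06Rik. The stretch 1.32 kb from Klf6 (chr13:5859170-5859419) was next to a region with early-G1 fold enrichments of 68.6 and 71.3.

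Among the 1162 regions with a peak in all 4 libraries, places were compared by limma on −log2 of the rank by fold enrichment, ranked anew among these regions. A positive change is a better place among the regions compared, and a change common to all regions cannot be seen. At a Benjamini-Hochberg adjusted p under 0.05, 106 regions were higher (9.12%) and 107 lower (9.21%) in early-G1, and 230 and 195 had an unadjusted p under 0.05. The split was not stable, with 119 higher and 512 lower when ranks were taken in the whole lists, 84 and 367 on log2 fold enrichment, and 104 and 290 of 1031 regions on summit pileup. Leaving out early-G1 replicate 1 gave 52 higher and 55 lower, leaving out prometaphase replicate 1 gave 194 lower, and leaving out prometaphase replicate 2 gave 202 higher and 302 lower. Coding TSS regions were more often higher than lower, with 99 and 50 of 805. Gene bodies had 3 higher and 27 lower of 208, stretches past gene ends 0 and 10 of 43, intergenic regions 0 and 14 of 47, and the TSS of other genes 4 and 6 of 59. These counts come from 1 fit over all regions, and no class was tested as a set.

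Of the 5 regions that moved up most, 4 lay over histone genes. The region over Hist1h4d and Gm17658 (chr13:23672047-23679306) went from 21.7 and 26.8 to 122 and 116, a rank change of 4.38 ± 0.37 (SE, limma adjusted p = 0.00997). Hist1h1d (chr13:23646558-23650229) changed by 3.90 ± 0.61 (SE, limma adjusted p = 0.0213), Hist3h2a with Trim17 (chr11:58766348-58774143) by 3.54 ± 0.22 (SE, limma adjusted p = 0.00766), and Hist1h1c (chr13:23830193-23831117) by 3.38 ± 0.36 (SE, limma adjusted p = 0.0134). In each of these 4 regions both early-G1 values exceeded both prometaphase values. The fifth was a U1 snRNA copy in an intron of Tex14 (chr11:87235383-87238561), with 63.4 and 46.8 and then 133 and 119 and a change of 3.11 ± 0.55 (SE, limma adjusted p = 0.0258). Beside 9.12% higher and 9.21% lower over all regions, 6 of 23 histone TSS regions were higher and 1 lower, with no test of the list. Of 8 p53 target regions, 3 were higher and 0 lower, namely Ccng1 (1.97), Cdkn1a (1.90) and Btg2 (1.39), which were named after their values were seen. Mcl1 moved up by 2.94 (SE 0.23, limma adjusted p = 0.00997) and Myc by 0.99 (SE 0.23, limma adjusted p = 0.0458).

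Regions at or near small nuclear RNA genes and mitotic genes were among the regions that moved down. The largest decrease lay over the snRNA gene AC120136.3 (chr1:72300848-72303839), with 50.5 and 57.6 and then 54.8 and 46.9 and a rank change of −5.73 ± 0.92 (SE, limma adjusted p = 0.0222). The region chr3:96132889-96133967, 375 bp from a U1 gene, went from 55.0 and 43.2 to 28.8 and 25.6 (−5.69 ± 0.25, SE, limma adjusted p = 0.00409). The region chr3:96288383-96289607, 870 bp from a U1 gene, went from 56.6 and 34.7 to 22.7 and 18.8 (−5.67 ± 0.52, SE, limma adjusted p = 0.0124), so in both regions every early-G1 value lay below every prometaphase value. The region chr3:96298687-96299957, 5870 bp from a U1 gene, had 50.4 and 49.9 and then 47.4 and 55.7 (−4.79 ± 0.48, SE, limma adjusted p = 0.0133). The region past the ends of Hist1h1d and Hist1h3e (chr13:23651438-23653011) had 37.4 and 31.9 and then 28.3 and 33.1 (−4.36 ± 0.21, SE, limma adjusted p = 0.00409). In the last 2 of these regions and at AC120136.3 the fold enrichments of the stages overlapped, while their places among the regions compared fell. U1 and histone loci are multi-copy, and their reads cannot be assigned with certainty.

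The genes of this paragraph were named after their values were seen, as the members of their lists that were called. Places are those of merged regions, which can hold more than the TSS peak of the gene named. Among regions over mitotic TSSs, 5 fell, namely Top2a by 2.16, Ube2s by 1.59, Hmmr and Ube2c by 1.51 each and Kif20a by 1.47 (limma adjusted p between 0.0167 and 0.0344). The Hmmr region also covers the Nudcd2 TSS, and the Hmmr TSS base had no peak in early-G1 replicate 1. Of 12 mitotic regions tested, 5 were lower and 0 higher, where 9.21% and 9.12% of all regions were lower and higher, and the list was not tested as a set. Ube2c and Ube2s supply ubiquitin conjugation to the anaphase-promoting complex. Top2a, although lower in place, had a higher fold enrichment in both early-G1 libraries. Among the immediate early genes, the region of Egr1 fell by 2.45 (SE 0.39, limma adjusted p = 0.0218), in contrast to Mcl1, so the list did not move in 1 direction. The region over Klf6 fell by 1.14, but the Klf6 TSS base had no prometaphase +auxin peak. As a gene, Klf6 was therefore counted as regained. Ribosomal protein genes had 3 higher and 4 lower of 64.

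**Figure D4:**
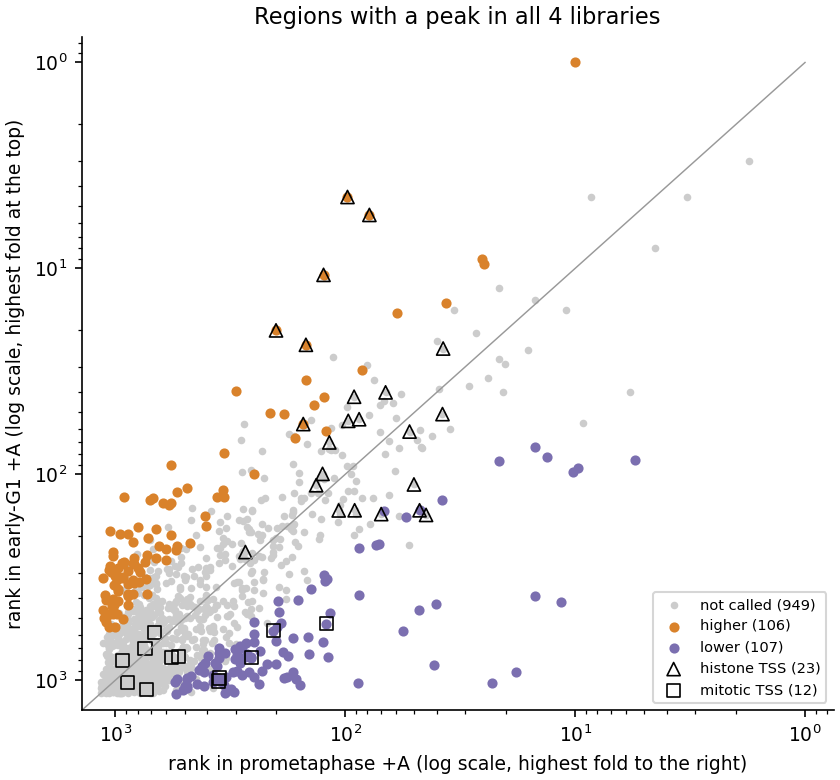
Mean rank by fold enrichment among the 1162 regions detected in all 4 +auxin libraries, prometaphase on the horizontal and early-G1 on the vertical axis, both on log axes. The 106 regions called higher in early-G1 by limma are orange, the 107 called lower purple and the other 949 grey, and triangles mark 23 histone and squares 12 mitotic TSS regions.

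The 8 coding TSS regions strongest in prometaphase had whole-list ranks from 3 to 100.5 in the early-G1 libraries. They were the Tex14 intron with a U1 copy (62.1 and 49.4, then 128 and 115), Srsf3, the promoter region of B930036N10Rik and Refbp2 with a U5 gene (59.6 and 42.1, then 86.0 and 82.3), Gas5 with Zbtb37, Rdm1 with a U2 gene (50.6 and 42.7, then 100 and 88.1), Txnip (41.4 and 45.9, then 93.8 and 94.9), H3f3b (44.0 and 41.7, then 111 and 112) and Srsf7. Txnip encodes a thioredoxin inhibitor and H3f3b the replication-independent histone H3.3. Among them Srsf7 moved up by 1.51 (limma adjusted p = 0.0196) and H3f3b by 1.45 (limma adjusted p = 0.0421). Srsf3 moved down by 3.36 (limma adjusted p = 0.0167) and the U5 region by 2.53 (limma adjusted p = 0.0483). The other 4 did not pass the test.

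Along genes, the share of bases under a PolII peak past the gene end at 1 h was lower the longer the gene. The set was the 7789 genes whose annotated 5' end itself lay under a peak in both early-G1 +auxin libraries. In genes shorter than 10 kb (2106 genes), 53.7% and 54.9% of bases 1 to 2 kb past the gene end lay under a peak. The share was 48.2% and 48.7% at 10 to 50 kb (3946 genes), 38.6% and 37.3% at 50 to 100 kb (1087 genes) and 10.5% and 9.06% above 100 kb (650 genes). Of the first kb past the TSS, peaks covered from 69.4% and 71.9% in the shortest to 59.3% and 61.0% in the longest genes. Because the genes were chosen for an early-G1 peak at the 5' end, coverage of the first kb was largely set in advance. It is therefore no comparison for the gene end. In prometaphase the share past the end was 5.26% and 3.72% in the shortest and 0.367% and 0.250% in the longest genes, so it was also lower in the longest. Peaks of neighbouring genes inside these windows were counted too, and their part was not tested.

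At 2 h, in mid-G1 +auxin, the share past the end of genes above 100 kb was 22.4%, 25.0% and 14.5%, higher in each of the 3 libraries than in both early-G1 libraries. In genes shorter than 10 kb it was 55.6%, 58.6% and 48.9%, around the early-G1 values. The mid-G1 +auxin libraries had depths of 8.39, 8.57 and 9.27 reads per kb, against 7.53 and 7.92 in early-G1 +auxin. The part of depth in this comparison was not tested. The early-G1 control values were 17.2% and 16.3% in the longest and 57.8% and 61.8% in the shortest genes, above the +auxin values in all length bins. The control libraries had depths of 8.15 and 11.8 reads per kb and covered 70.0 ± 4.62 Mb against 57.0 ± 0.257 Mb with auxin (SD, n = 2 each), and the part of depth in this difference was not tested. Inside the 290 genes of 150 kb or more, mid-G1 and early-G1 +auxin values overlapped. At 40 to 60 kb from the TSS they were 1.93%, 2.60% and 0.918% in mid-G1 and 2.68% and 2.56% in early-G1. At 100 to 150 kb they were 1.54%, 2.15% and 0.806% in mid-G1 and 1.22% and 1.09% in early-G1. With coverage counted only under called peaks, low signal in long introns is missed at every stage.

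**Figure D5:**
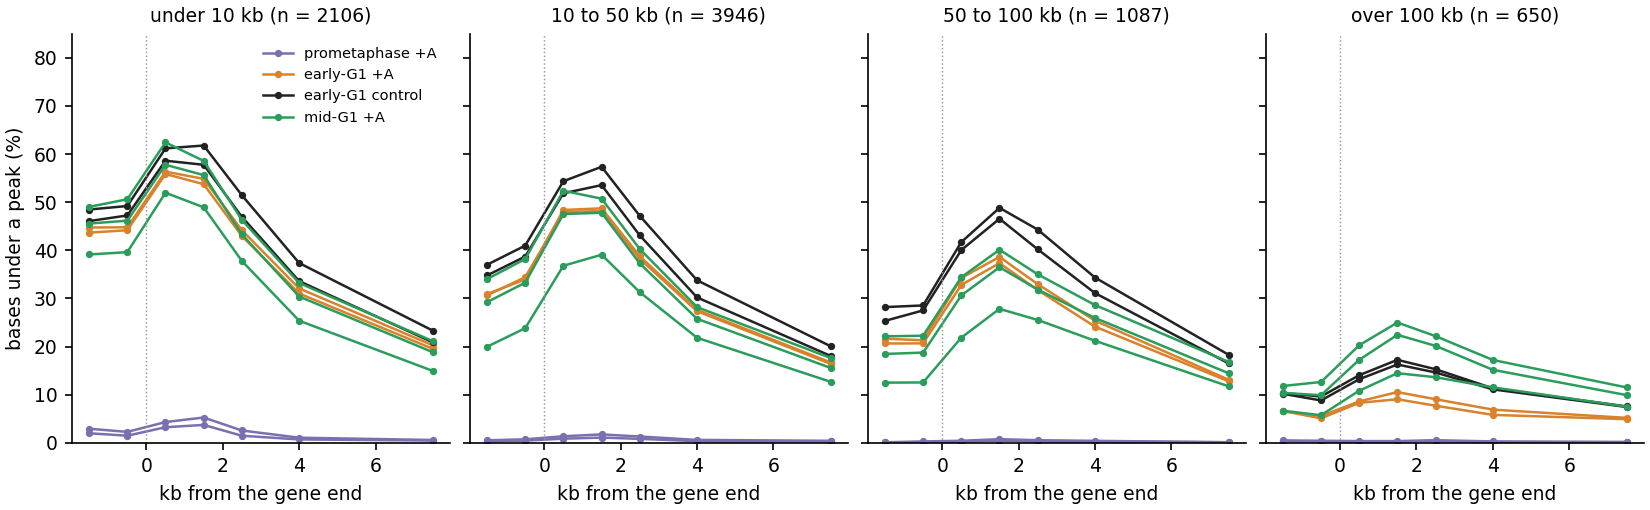
Percentage of bases under a PolII peak against distance from the gene end in kb, in 4 gene length bins, each line 1 library. The genes are those whose annotated 5' end lay under a peak in both early-G1 +auxin libraries. Prometaphase +auxin is purple, early-G1 +auxin orange, early-G1 control black and mid-G1 +auxin green, and past the end of genes over 100 kb the orange lines lie below the green ones.

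Single long genes differed from this pattern. In the 650 genes above 100 kb the median run of coverage from the TSS, with gaps of up to 5 kb bridged, was 0.745 and 0.765 kb. Chd2, a chromatin remodeller gene of 115 kb, was covered over 114.9 and 115.1 kb in early-G1 and over 7.77 and 4.11 kb in prometaphase. Dyrk1a, a kinase gene, was covered over 125.5 and 102.3 kb, with no run in prometaphase. Control early-G1 runs were 115.1 and 115.1 kb at Chd2 and 125.5 and 125.4 kb at Dyrk1a.

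The same contrast in cells that kept CTCF gave similar counts. The control lists held 3918 and 3221 peaks in prometaphase and 107213 and 103538 in early-G1. The stage difference in peak number was larger with auxin by 0.22 on the log2 scale (1.17-fold), equal to the SD between replicates of 0.22 (exact two-sided permutation p = 0.667, smallest possible 0.0556). TSS peaks were regained at 7149 genes (34.9%) in the controls, and 6704 genes were regained in both, which is 89.2% of the +auxin and 93.8% of the control set. Of the genes regained with auxin, 50 had no early-G1 control TSS peak and 117 had both prometaphase control TSS peaks. Of those regained in the control, 51 had no early-G1 +auxin TSS peak and 26 had both prometaphase +auxin TSS peaks. These counts turn on the TSS base and do not show genes without PolII. Hnrnpa2b1, for example, is among the 51, and its nearest +auxin early-G1 peaks were 25 and 31 bp away. Control prometaphase lists held TSS peaks for 1070 and 937 genes against 817 and 672 with auxin, so more genes could be counted as regained with auxin. Over 907 regions detected in all 8 libraries, limma found no region whose rank change between stages differed with auxin (0% of regions at an adjusted p under 0.05), with 35 above and 45 below at an unadjusted p under 0.05. Called regions appeared on other scales, 8 on whole-list ranks and 6 on summit pileup, and in each of them the change was lower with auxin. The control lists can be set beside the 5 largest decreases above. At AC120136.3 they went from 65.2 and 53.6 to 50.8 and 38.7, and at chr3:96132889-96133967 from 54.1 and 40.3 to 45.2 and 43.7. At chr3:96288383-96289607 they went from 38.05 and 29.99 to 44.2 and 42.6, at chr3:96298687-96299957 from 49.7 and 34.4 to 91.6 and 85.5, and at the region past Hist1h1d from 29.5 and 24.5 to 58.3 and 99.4. A control value is the highest of any control peak that overlaps the region, and such a peak can reach beyond it. The value 99.4 was also that of early-G1 control replicate 2 at the neighbouring Hist1h1d region. It therefore cannot be credited to the region past Hist1h1d. Control values were lower in early-G1 at the first region, overlapped between stages at the second and were higher at the other 3, with this limit. These regions were set side by side after their values were seen. A p that misses the threshold does not show that the changes were equal.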

How the data were processed

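PolII was measured by ChIP-seq in 18 libraries, each with a peak list, and 4 input samples served as the control of the caller. Per the labels and methods, the authors aligned reads to mm9 with Bowtie2 2.2.9, filtered them with SAMtools 0.1.19 and bedtools 2.27.1, and called peaks per library with MACS2 2.1.0. Per peak, the deposited lists give fold enrichment (a ratio to the local background), −log10 p-value, −log10 q-value and a score, which was not used. The lists hold only peaks that passed the caller, so a missing peak is not absence of PolII, and no read count was modelled. Depth was recovered from each list by solving its fold enrichments and p-values for pileup and background.

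Groups came from sample titles. Peaks were merged at 1 bp overlap and assigned to TSS, gene body, gene end or intergenic class with GENCODE vM1. Ranks were fitted with limma 3.58.1 in R 4.3.3 with 2 group means (4 for the difference with auxin), and totals by exact permutation in Python 3.11.15. The fit was tested on simulated data. Genes were named by rank, by rank change and by place in each list, as were the longest runs. Members and lists were chosen with earlier results of these data known. Replicate numbers were not used as pairs. Promoters came from RefSeq, and intervals in mm9 and GRCm38.p6 were never mixed. Some genes that the naming rule picked are not reported here.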

Additional observations from a re-analysis of the deposited data

How the results depend on the processing

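Peak lists without read totals, 2 libraries per group and multi-copy loci limit these results, and a missing peak can reflect depth. The log2 stage differences in peak number, covered length and width kept direction under each alternative run, with ranges without 1 library of 4.84 to 5.39, 5.40 to 5.87 and 0.300 to 0.399, and no setting could bring their exact p to the threshold. Genes with a regained TSS numbered 7434 to 7550 under other settings and 7676 to 7860 without 1 library. Regained regions numbered 24348 when peaks within 1 kb were joined, since fewer regions then exist, and 54313 to 99515 without 1 library, since fewer libraries then had to hold a peak.

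Regions called higher numbered 52 to 202 and lower 55 to 302 without 1 library. Regions called lower numbered 367 on log2 fold enrichment, 290 on summit pileup and 512 on whole-list ranks, and the cause was not tested. Regions whose change differed with auxin numbered 6 on summit pileup, 8 on whole-list ranks and 0 to 2 without 1 library, the 2 without early-G1 control replicate 1. The difference of peak number changes between auxin and control ranged from -0.054 to 0.498 without 1 library and reversed to -0.054 without prometaphase +auxin replicate 2. Rank deviations of the prometaphase and early-G1 +auxin libraries of the same number had a correlation of 0.055. This value does not tell which steps of preparation they shared. With the replicate block 133 regions were higher, 117 lower and 0 differed with auxin, and the totals stayed at 5.11, 5.64 and 0.35 (exact permutation p = 0.5).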
